A study of Mus musculus with 36 samples.

Results

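Kidneys of mice that had lost Bmal1 from the renal tubule and were never made diabetic were compared with kidneys of control littermates that received the same injections. The comparison was chosen by sample title and used 18 of the 36 libraries of the series, 9 labelled PBS-cKOt and 9 labelled PBS-control, each from a separate mouse. PBS-cKOt mice carried Bmal1 lox/lox with the transgenes Pax8-rtTA and LC1, in which the Pax8 promoter makes a doxycycline-activated transcription factor in tubular cells and LC1 supplies the Cre recombinase. PBS-control mice were littermates with Bmal1 lox/lox that lacked both transgenes, so that carrying the transgenes and losing Bmal1 cannot be told apart. All 18 mice drank doxycycline at 2 mg/ml for 2 weeks from an age of 8 weeks, received vehicle injections on 5 days starting 1 week later, and had kidneys collected once 8 weeks had passed since the final injection, at ZT9 (9 hours after the lights came on). The other 18 libraries, STZ-cKOt and STZ-control, came from mice of the same genotypes injected with streptozotocin, a toxin of insulin-producing cells, at 50 mg/kg daily, and are used here only to set the same genotype comparison beside that in PBS mice. RNA was from whole kidney, so a lower level can mean fewer cells of a type or less RNA per cell, which cannot be told apart.

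BMAL1, encoded by Arntl, pairs with CLOCK or NPAS2 and binds E-box sequences to drive the other clock genes, among them the repressors PER, CRY and REV-ERB and the output factors DBP, TEF and HLF. DBP, TEF and HLF bind D-box sequences and pass the rhythm on to genes of metabolism, while NFIL3 binds the same sequences as a repressor. The renal tubule reabsorbs salt, water, sugars and amino acids, secretes drugs and organic ions, and burns fatty acids to do so.

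Between 17315350 and 22278675 reads were assigned to genes per PBS-cKOt library and between 18411704 and 22080322 per PBS-control library. Counts covered the whole Arntl gene, including exons outside any floxed part, and so do not check the deletion. Arntl had 12.9, 15.5 and 17.4 CPM (reads per 1000000 of the TMM-scaled library; lowest, median and highest library, as in all such triplets below) in PBS-cKOt kidneys, against 1.09, 1.91 and 2.40 CPM in PBS-control kidneys. All PBS-cKOt libraries thus lay above all PBS-control libraries for the targeted gene. The library labelled STZ-control 2 had 13.4 Arntl CPM, among the 13.03 to 17.1 CPM of STZ-cKOt and above the 1.18 to 2.64 CPM of the other 8 STZ-control libraries, so counts of calls, counts of smaller folds and tests of the difference that use STZ mice are given with and without it. PBS-cKOt 1 and PBS-cKOt 3 stood apart from the other PBS-cKOt libraries in that longer genes had relatively fewer reads (slopes of log2 deviation on log2 exon length of -0.170 and -0.0753, the lowest of the 18 libraries), and list counts that move most without the pair are also given without it. Scaling factors computed by TMM, a trimmed mean of log ratios between libraries, did not overlap between the groups (0.985 to 1.04 in PBS-cKOt, against 0.869 to 0.982 in PBS-control), so the direction of small changes rests on the scaling.

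Of 15637 genes tested, 1707 (10.9%) were higher and 1954 (12.5%) lower in PBS-cKOt than in PBS-control kidneys, 23.4% in all, at an adjusted p under 0.05 in edgeR's quasi-likelihood test. Most changes were small, since 2605 of the called genes changed by less than 1.5-fold, and 194 genes (1.24%) were at least 2-fold higher and 201 (1.29%) at least 2-fold lower, 2.53% together. For 800 genes (5.12%) the PBS-cKOt and PBS-control libraries did not overlap. With library sizes alone in place of TMM the split became 4404 higher and 990 lower, and the median gene moved by 0.11 on the log2 scale. Changes are therefore read relative to the TMM scaling, and a fold of 2 or more is far larger than that shift. Without PBS-cKOt 1 and PBS-cKOt 3, 1485 genes were higher and 1488 lower, and 190 of the 194 and 185 of the 201 genes with at least 2-fold change were still called the same way.

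The largest rises outside the core clock were in a water channel, fibrinogen chains and enzymes of betaine, arginine, hydroxy acid and collagen chemistry. Aqp8, a channel for water and ammonia (chr7:123462291-123468004 on GRCm38, like all gene positions here from GENCODE M21), had 9.35, 15.3 and 32.5 CPM in PBS-cKOt kidneys, against 0.243, 0.489 and 1.04 CPM in PBS-control kidneys. Every PBS-cKOt library lay above every PBS-control library, and the log2 fold change was 5.05 ± 0.29 (SE; edgeR adjusted p = 9.65e-17). Bhmt, which methylates homocysteine with betaine (chr13:93616675-93637961), had 14.1, 21.3 and 67.2 CPM in PBS-cKOt, against 0.872, 1.51 and 2.35 CPM in PBS-control, a log2 fold change of 4.03 ± 0.32 (edgeR adjusted p = 1.07e-12). Loxl4, a lysyl oxidase that crosslinks collagen (chr19:42593982-42612813), had 19.3, 31.5 and 45.2 CPM in PBS-cKOt, against 0.821, 1.81 and 2.94 CPM in PBS-control, a log2 fold change of 3.98 ± 0.18 (edgeR adjusted p = 4.63e-20). For neither gene did any PBS-cKOt library reach the PBS-control range.

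Ppard, a nuclear receptor for fatty acids that drives their oxidation (chr17:28232700-28301474), had 84.4, 112 and 146 CPM in PBS-cKOt, against 9.34, 13.7 and 14.5 CPM in PBS-control, a log2 fold change of 3.12 ± 0.13 (edgeR adjusted p = 4.99e-21). Hao2, the kidney's peroxisomal oxidase of long-chain hydroxy acids (chr3:98874521-98893239), had 981, 1046 and 1394 CPM in PBS-cKOt, against 91.4, 136 and 196 CPM in PBS-control, a log2 fold change of 2.94 ± 0.18 (edgeR adjusted p = 4.63e-16). Ppard was thus 8.71-fold and Hao2 7.69-fold higher, each without overlap between the groups. Arg2, the mitochondrial arginase, had 26.0, 29.9 and 39.5 CPM in PBS-cKOt, against 3.47, 5.07 and 6.84 CPM in PBS-control (log2 fold change 2.68 ± 0.13). Slc7a12, an amino acid transporter of the proximal tubule, had 16.5, 36.1 and 57.1 CPM in PBS-cKOt, against 0.684, 2.94 and 7.19 CPM in PBS-control (log2 fold change 3.55 ± 0.34). Fhad1, a protein with a forkhead-associated domain, and Col6a6, a collagen VI chain, were also among the 12 largest rises, at log2 fold changes of 4.82 ± 0.23 and 3.17 ± 0.23.

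By number of reads gained, Ndrg1, a protein induced by differentiation and low oxygen (chr15:66929318-66969640), came first. It had 3040, 3859 and 4305 CPM in PBS-cKOt, against 756, 977 and 1215 CPM in PBS-control, a log2 fold change of 1.97 ± 0.13 (edgeR adjusted p = 2.17e-15). Cltrn, the collectrin that carries amino acid transporters to the brush border, had 1980, 2233 and 2836 CPM in PBS-cKOt, against 1159, 1437 and 1748 CPM in PBS-control (log2 fold change 0.65 ± 0.08). Clpx, the unfoldase of the mitochondrial ClpXP protease, had 309, 357 and 393 CPM in PBS-cKOt, against 114, 131 and 170 CPM in PBS-control (log2 fold change 1.38 ± 0.08). For Ndrg1, Cltrn and Clpx the groups did not overlap.

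The largest falls were in cytochromes P450, secreted proteins and genes best known from neurons. Synpr, which encodes the synaptic vesicle protein synaptoporin (chr14:13284780-13616340), had 0.104, 0.899 and 1.88 CPM in PBS-cKOt, against 1.76, 26.2 and 61.6 CPM in PBS-control. The control kidneys spread widely, 8 of 9 PBS-cKOt libraries lay below all of them, and the log2 fold change was -5.14 ± 0.66 (edgeR adjusted p = 1.20e-07). Angptl7, a secreted angiopoietin-like protein (chr4:148495183-148500460), had 0.384, 1.01 and 2.07 CPM in PBS-cKOt, against 8.99, 14.6 and 24.7 CPM in PBS-control, a log2 fold change of -3.81 ± 0.31 (edgeR adjusted p = 1.29e-12). Hrg, histidine-rich glycoprotein of plasma, had 0.880, 0.986 and 1.43 CPM in PBS-cKOt, against 5.43, 7.47 and 15.2 CPM in PBS-control, a log2 fold change of -2.87 ± 0.17 (edgeR adjusted p = 1.06e-16). Neither of these secreted proteins had a PBS-cKOt library within the PBS-control range.

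Nkain1, a partner of the sodium pump, had 0.563, 1.01 and 2.75 CPM in PBS-cKOt, against 6.87, 8.81 and 10.3 CPM in PBS-control (log2 fold change -2.76 ± 0.19). Prkag3, a regulatory subunit of the energy sensor AMPK, had 0.837, 1.32 and 2.75 CPM in PBS-cKOt, against 6.11, 8.95 and 11.1 CPM in PBS-control (log2 fold change -2.62 ± 0.15). The adaptor Anks1b, Ctxn3 and Hapln1, which links hyaluronan to proteoglycans, fell by 3.50 ± 0.27, 3.21 ± 0.37 and 2.97 ± 0.27 on the log2 scale. C4a, a complement gene with a near-identical neighbour copy, fell by 3.02 ± 0.29, with the split of reads between the copies uncertain.

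**Figure D1:**
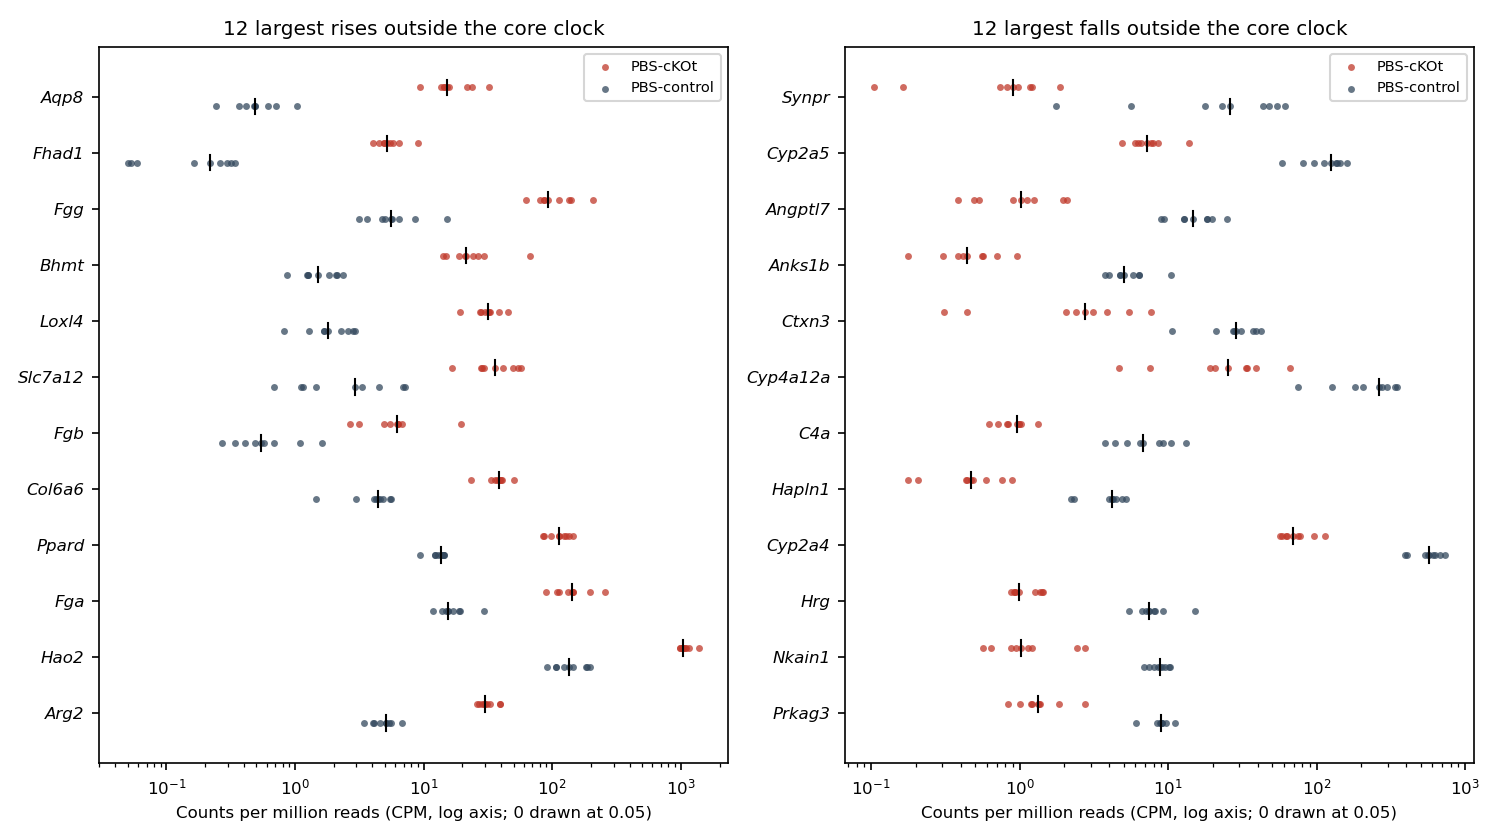
CPM of the 12 genes with the largest rises (left) and the 12 with the largest falls (right) outside the core clock, on a log axis; each point is a library (9 PBS-cKOt above, 9 PBS-control below), the tick is the group median, and a count of 0 is drawn at 0.05. The groups do not overlap for any gene shown except Synpr, where 8 of 9 PBS-cKOt libraries lie below all PBS-control libraries.

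Of the D-box binding factors, the activators Dbp and Tef were lower and the repressor Nfil3 was higher. Dbp had 16.5, 23.1 and 31.7 CPM in PBS-cKOt, against 97.1, 116 and 135 CPM in PBS-control (log2 fold change -2.21 ± 0.19), and Tef fell by 1.19 ± 0.08 on the log2 scale. The third activator, Hlf, was lower by little (log2 fold change -0.21 ± 0.07, edgeR adjusted p = 0.0329) and was not called under library sizes alone (adjusted p = 0.340) or without PBS-cKOt 1 and PBS-cKOt 3 (adjusted p = 0.0733). Nfil3 had 11.4, 18.2 and 27.3 CPM in PBS-cKOt, against 1.03, 1.55 and 2.76 CPM in PBS-control (log2 fold change 3.47 ± 0.26). Promoters of RefSeq transcripts, 250 bases before to 50 bases after the start on GRCm38.p6, were available for 11561 tested genes and were searched on both strands for the D-box (TTATGTAA or TTACGTAA), the E-box (CACGTG) and the ROR/REV-ERB core motif (AGGTCA). A gene with several promoters was counted if any of them held the motif, so such genes had more chances of a match. Of genes at least 2-fold lower in PBS-cKOt, 8 of 119 held a D-box (6.72%, exact 95% binomial interval 2.95% to 12.8%). Of genes at least 2-fold higher, 1 of 133 did (0.752%, interval 0.0190% to 4.12%), against 0.8996% of all tested genes. Among all genes called lower the share was 2.11%, and among all genes called higher 0.463%. Outside the core clock 7 of 113 genes (6.19%) at least 2-fold lower and 30 of 1458 genes (2.06%) called lower held a D-box, against 0.892% of all. The E-box share was 9.24% in genes at least 2-fold lower and 7.52% in genes at least 2-fold higher, against 11.4% of all tested genes. For the core motif AGGTCA it was 21.8% and 18.05%, against 15.3%. At this fold the intervals of the E-box and AGGTCA shares include the share of all tested genes, whereas among all genes called lower AGGTCA stood in 17.8% (15.9% to 19.9%).

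**Figure D2:**
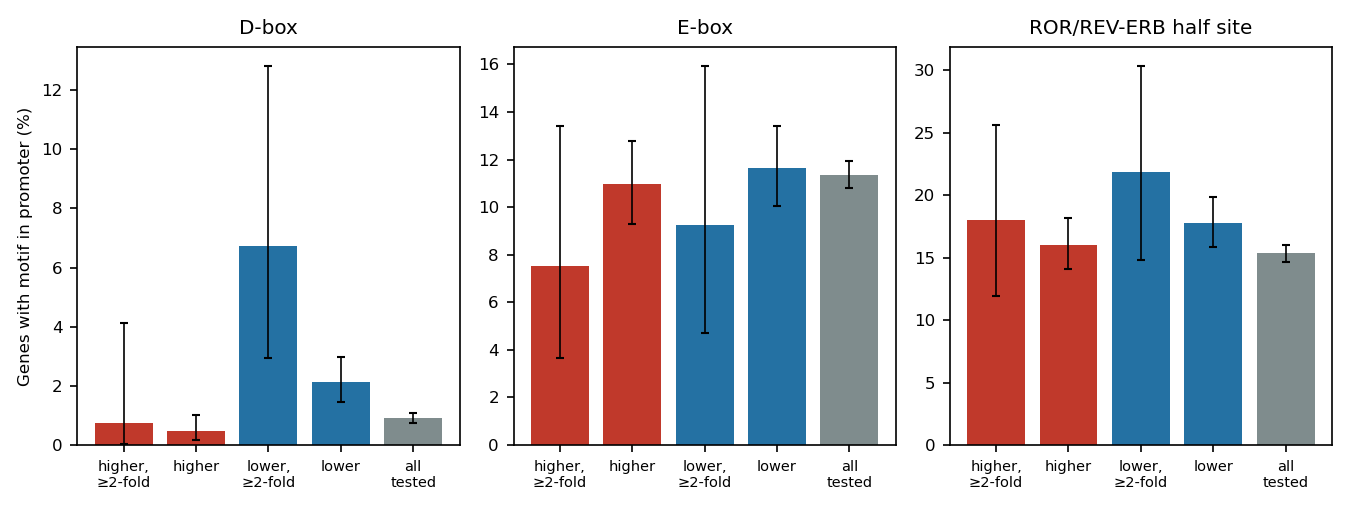
Share of genes (percent) with a D-box, an E-box or an AGGTCA core motif in the promoter, for genes higher (red) and lower (blue) in PBS-cKOt, at any fold and at least 2-fold, and for all tested genes (grey); bars are shares and whiskers exact 95% binomial intervals. The D-box share of genes at least 2-fold lower is 6.72%, against 0.8996% of all tested genes.

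The promoters of the 7 genes outside the clock that were at least 2-fold lower and hold a D-box follow, since the D-box was more frequent among such genes than among all tested genes; letters in capitals mark the D-box in either orientation, each sequence is given 5′ to 3′ on the gene's strand, and the sequences are RefSeq promoters on GRCm38.p6. They lie at chr5:90460620-90460919 (Alb, plus strand), chr8:93337160-93337459 (Ces1g, minus strand), chr19:7802618-7802917 (Slc22a26, minus strand), chr1:55052520-55052819 (Coq10b, plus strand), chr4:101419062-101419361 (Ak4, plus strand, of several starts), chr17:74459059-74459358 (Nlrc4, minus strand) and chr8:10899672-10899971 (4833411C07Rik, plus strand).
Alb: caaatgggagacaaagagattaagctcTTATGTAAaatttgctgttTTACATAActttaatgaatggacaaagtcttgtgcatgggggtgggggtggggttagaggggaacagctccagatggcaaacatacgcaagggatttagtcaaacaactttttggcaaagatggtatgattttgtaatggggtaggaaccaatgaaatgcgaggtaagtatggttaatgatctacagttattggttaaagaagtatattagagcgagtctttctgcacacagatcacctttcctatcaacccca
Ces1g: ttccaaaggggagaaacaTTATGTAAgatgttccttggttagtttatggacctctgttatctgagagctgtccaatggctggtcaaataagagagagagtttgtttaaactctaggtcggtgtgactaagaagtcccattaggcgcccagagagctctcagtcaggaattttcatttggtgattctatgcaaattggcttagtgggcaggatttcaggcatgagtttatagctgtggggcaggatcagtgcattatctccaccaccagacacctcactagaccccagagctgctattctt
Slc22a26: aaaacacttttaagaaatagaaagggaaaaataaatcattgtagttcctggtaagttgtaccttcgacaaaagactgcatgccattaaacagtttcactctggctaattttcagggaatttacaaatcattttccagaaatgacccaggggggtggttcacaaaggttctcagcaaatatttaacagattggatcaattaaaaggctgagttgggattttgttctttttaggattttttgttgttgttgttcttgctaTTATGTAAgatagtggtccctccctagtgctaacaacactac
Coq10b: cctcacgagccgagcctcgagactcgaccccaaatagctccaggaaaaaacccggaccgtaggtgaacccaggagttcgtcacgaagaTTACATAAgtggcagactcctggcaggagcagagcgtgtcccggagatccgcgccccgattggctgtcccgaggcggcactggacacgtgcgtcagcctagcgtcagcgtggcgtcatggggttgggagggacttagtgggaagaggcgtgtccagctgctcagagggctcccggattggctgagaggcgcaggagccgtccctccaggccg
Ak4: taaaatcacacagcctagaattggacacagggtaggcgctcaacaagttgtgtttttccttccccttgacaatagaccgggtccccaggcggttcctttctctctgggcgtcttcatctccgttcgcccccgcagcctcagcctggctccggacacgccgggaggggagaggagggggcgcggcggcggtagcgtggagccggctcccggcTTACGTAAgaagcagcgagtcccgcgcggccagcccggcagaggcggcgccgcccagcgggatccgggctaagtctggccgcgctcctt
Nlrc4: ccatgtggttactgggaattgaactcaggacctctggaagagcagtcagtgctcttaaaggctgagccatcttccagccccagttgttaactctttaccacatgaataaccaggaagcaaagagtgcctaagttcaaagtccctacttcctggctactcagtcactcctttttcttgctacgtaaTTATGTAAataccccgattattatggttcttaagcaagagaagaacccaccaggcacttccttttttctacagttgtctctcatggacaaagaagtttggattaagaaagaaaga
4833411C07Rik: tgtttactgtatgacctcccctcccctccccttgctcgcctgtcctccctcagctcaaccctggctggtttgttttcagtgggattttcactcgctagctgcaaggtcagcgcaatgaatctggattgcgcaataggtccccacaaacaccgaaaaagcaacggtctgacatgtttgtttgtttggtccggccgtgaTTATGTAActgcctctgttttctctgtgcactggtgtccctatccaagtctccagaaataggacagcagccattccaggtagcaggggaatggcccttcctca

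Alb encodes albumin, and DBP was named for the D site of its promoter, which is a textbook liver case. The sequence above holds 2 matches to the searched letters, starting 223 and 204 bases before the transcription start. Whether either match is that D site was not checked, and a site with other letters would not be marked. In these kidneys Alb had 0.704, 1.42 and 6.03 CPM in PBS-cKOt, against 6.94, 8.81 and 13.97 CPM in PBS-control, without overlap (log2 fold change -2.24 ± 0.29, edgeR adjusted p = 1.47e-07). Ces1g, a carboxylesterase, had 0.750, 1.14 and 1.62 CPM in PBS-cKOt, against 3.42, 6.16 and 7.94 CPM in PBS-control, and its D-box starts 232 bases before the transcription start. Slc22a26, an organic anion transporter of the proximal tubule, had 5.63, 10.9 and 18.4 CPM in PBS-cKOt, against 22.0, 27.2 and 49.5 CPM in PBS-control.

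Coq10b, a protein of coenzyme Q function in the respiratory chain, had 25.0, 32.6 and 39.4 CPM in PBS-cKOt, against 67.2, 83.2 and 95.8 CPM in PBS-control (log2 fold change -1.36 ± 0.09, edgeR adjusted p = 1.60e-14). Ak4, a mitochondrial adenylate kinase, had 198, 245 and 271 CPM in PBS-cKOt, against 432, 542 and 613 CPM in PBS-control (log2 fold change -1.14 ± 0.08, edgeR adjusted p = 4.66e-15). Nlrc4, an inflammasome sensor of bacterial proteins, had 4.11, 4.93 and 6.19 CPM in PBS-cKOt, against 8.31, 9.93 and 14.6 CPM in PBS-control. For these 3 genes, Ces1g and Slc22a26 too, all PBS-cKOt libraries lay below all PBS-control libraries. The unnamed transcript 4833411C07Rik was near the limit of detection, at 0.0866, 0.345 and 0.519 CPM in PBS-cKOt, against 0.328, 0.724 and 1.29 CPM in PBS-control, with overlap. The single gene at least 2-fold higher with a D-box was Prlr, the prolactin receptor, at 14.4, 24.6 and 50.8 CPM in PBS-cKOt, against 2.04, 4.63 and 9.10 CPM in PBS-control. These 8 genes were chosen by the motif after their values were known, and a match shows only that the letters are present.

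Among genes of drug metabolism and drug transport more were called lower than higher. In the list of phase I and haem-linked drug metabolism, 16 of 29 tested genes were lower and 2 higher (median log2 fold change -0.48), against 12.5% lower and 10.9% higher and a median of 0.00 among all tested genes. That list was written with earlier results of these data known. Over all 46 tested genes with a Cyp symbol, 14 were lower and 9 higher, and the median was 0.03. Cyp2a5, which hydroxylates coumarin and nicotine (chr7:26835305-26843548), had 4.88, 7.15 and 13.9 CPM in PBS-cKOt, against 58.8, 124 and 159 CPM in PBS-control, a log2 fold change of -3.93 ± 0.23 (edgeR adjusted p = 1.35e-16). Its near-identical relative Cyp2a4 had 56.3, 69.2 and 113 CPM in PBS-cKOt, against 396, 570 and 734 CPM in PBS-control (log2 fold change -2.93 ± 0.17). Both fell far outside the spread of the controls, but reads cannot be divided with certainty between such close copies, nor between Cyp4a12a, which fell by 3.08 ± 0.35, and its relatives. Ces1d, a carboxylesterase, had 38.4, 60.9 and 105 CPM in PBS-cKOt, against 272, 379 and 465 CPM in PBS-control (log2 fold change -2.45 ± 0.14).

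The electron donor shared by all microsomal P450 enzymes was lower as well. Por, cytochrome P450 reductase, had 150, 188 and 219 CPM in PBS-cKOt, against 282, 334 and 382 CPM in PBS-control (log2 fold change -0.84 ± 0.07, edgeR adjusted p = 2.33e-12). Alas1, the entry enzyme of haem synthesis, fell by 0.76, Ephx2 by 0.51 and Fmo1 by 0.28 on the log2 scale. The 2 members called higher were the P450 genes Cyp2d22 (0.58) and Cyp2d26 (0.75). Of the 29 log2 fold changes in the list 6 were positive, and the highest, 1.18, was not called. Without PBS-cKOt 1 and PBS-cKOt 3 the list gave 16 lower and 2 higher, and under library sizes alone 15 lower and 3 higher.

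Conjugating enzymes split. Of 34 phase II genes, 11 were lower and 6 higher (4 higher without PBS-cKOt 1 and PBS-cKOt 3), with a median of -0.06 that became 0.05 under library sizes alone. Ugt2b38, a glucuronosyltransferase, had 597, 675 and 840 CPM in PBS-cKOt, against 955, 1329 and 1673 CPM in PBS-control (log2 fold change -0.96 ± 0.10). Glyat, which joins glycine to acyl groups, and the glutathione transferase Gsta3 fell by 0.62 ± 0.07 and 1.10 ± 0.12. Acsm1, an acyl-CoA synthetase of the same glycine pathway, rose by 0.58 ± 0.07, with 231, 264 and 310 CPM in PBS-cKOt, against 136, 186 and 201 CPM in PBS-control.

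Among 34 organic ion and drug transporters, 14 were lower and 3 higher, with a median of -0.08, and under library sizes alone 11 were lower and 7 higher, with a median of 0.03. Slc22a8 (OAT3), the basolateral importer of organic anions, had 156, 220 and 314 CPM in PBS-cKOt, against 369, 419 and 539 CPM in PBS-control (log2 fold change -0.94 ± 0.12, edgeR adjusted p = 1.90e-07). The carnitine transporter Slc22a5 (OCTN2) had 127, 146 and 187 CPM in PBS-cKOt, against 256, 265 and 280 CPM in PBS-control (log2 fold change -0.84 ± 0.08). Its neighbour on chromosome 11, Slc22a4, fell by 0.63 ± 0.07, and the anion transporter Slco3a1 by 0.71 ± 0.08. The paired copies of the efflux pump P-glycoprotein went opposite ways, Abcb1a at -0.81 and Abcb1b at 0.97.

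Of 44 tested fatty acid oxidation genes, 19 were lower and 6, Ppard among them, were higher (median -0.20). Without PBS-cKOt 1 and PBS-cKOt 3, 21 were lower and 5 higher, and under library sizes alone 14 were lower and 8 higher. Acadl, the long-chain acyl-CoA dehydrogenase, had 218, 238 and 268 CPM in PBS-cKOt, against 337, 390 and 457 CPM in PBS-control (log2 fold change -0.70 ± 0.07, edgeR adjusted p = 8.57e-11). Ucp2, an uncoupling protein of the inner mitochondrial membrane, had 48.1, 68.5 and 82.1 CPM in PBS-cKOt, against 132, 154 and 180 CPM in PBS-control (log2 fold change -1.27 ± 0.12). Entry and shuttle steps were lower together, with Cd36 at -0.70, Fabp3 at -0.79 ± 0.09, Cpt1a at -0.38, Slc25a20 at -0.46 and Crat at -0.36. Acsl1, which activates long-chain fatty acids, and Pdk4, which restrains pyruvate oxidation, were higher at 0.87 and 0.83.

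Of 31 fatty acid synthesis and storage genes, 9 were lower and none higher (median -0.27), with 6 lower under library sizes alone. Among the lower genes were Scd1, the desaturase, at -1.23, Acaca at -0.55 and Dgat2, which completes triglyceride synthesis, at -0.55 ± 0.07. Of 27 cholesterol synthesis and uptake genes, 9 were lower and 2 higher (median -0.18), and under library sizes alone 9 were lower and 5 higher. Sqle, squalene epoxidase, had 36.8, 44.8 and 50.1 CPM in PBS-cKOt, against 60.5, 73.6 and 98.0 CPM in PBS-control (log2 fold change -0.74 ± 0.09). The 2 called higher were Idi1 (0.60) and Pmvk (0.40), steps of the mevalonate pathway.

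Ketone and monocarboxylate genes were led by Slc16a1 (MCT1), a transporter of lactate, pyruvate and ketone bodies (chr3:104638668-104658462). It had 93.6, 116 and 136 CPM in PBS-cKOt, against 22.0, 30.7 and 37.5 CPM in PBS-control (log2 fold change 1.86 ± 0.18, edgeR adjusted p = 1.07e-10). Aacs, which activates acetoacetate for lipid synthesis, had 68.0, 95.4 and 133 CPM in PBS-cKOt, against 153, 202 and 265 CPM in PBS-control (log2 fold change -1.07 ± 0.13). In the whole list 4 of 18 genes were higher and 2 lower, and 7 higher and 2 lower under library sizes alone.

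Genes of sugar handling changed in both directions. Of 22 genes of gluconeogenesis and glucose transport, 5 were higher and 3 lower, and 8 higher and 2 lower under library sizes alone. The basolateral glucose transporter Slc2a2 (GLUT2) had 112, 160 and 205 CPM in PBS-cKOt, against 196, 230 and 288 CPM in PBS-control (log2 fold change -0.57 ± 0.13), while Slc2a1 (GLUT1) rose by 0.49 ± 0.08. Of the genes of glucose 6-phosphate hydrolysis, the phosphatase G6pc was higher (0.34) and its transporter Slc37a4 lower (-0.33 ± 0.06). Slc2a5, the fructose transporter, had 34.3, 49.4 and 58.5 CPM in PBS-cKOt, against 74.4, 91.4 and 116 CPM in PBS-control (log2 fold change -0.97 ± 0.11), and Sord, which makes fructose from sorbitol, fell by 0.47 ± 0.05. Hexokinase Hk2 fell by 1.39 and Ldhd, the D-lactate dehydrogenase, fell by 0.72 ± 0.11 on the log2 scale. In glycolysis, the TCA cycle and the pentose phosphate pathway 13 of 45 genes were lower and 3 higher, a direction that turned under library sizes alone (5 lower, 10 higher).

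In methyl group and betaine metabolism 8 of 27 genes were higher and 6 lower, and under library sizes alone 12 were higher and 4 lower. On the betaine route, Bhmt, its neighbour Bhmt2 (0.46 ± 0.06) and Dmgdh, which takes up the dimethylglycine that Bhmt releases (0.65 ± 0.05), were all higher. Dmgdh had 245, 261 and 313 CPM in PBS-cKOt, against 154, 169 and 198 CPM in PBS-control. Sardh, the following enzyme, had 244, 307 and 338 CPM in PBS-cKOt, against 398, 447 and 479 CPM in PBS-control (log2 fold change -0.55 ± 0.06), and Chdh, which makes betaine, was lower at -0.22. All 4 of Bhmt, Bhmt2, Dmgdh and Sardh were without overlap between the groups.

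Of 18 kidney genes of polyamine metabolism or known to respond to androgens, 7 were lower and none higher, and under library sizes alone 6 were lower and 3 higher. Odc1, ornithine decarboxylase of polyamine synthesis (chr12:17544794-17551505), had 497, 728 and 862 CPM in PBS-cKOt, against 1351, 1857 and 2241 CPM in PBS-control (log2 fold change -1.34 ± 0.14, edgeR adjusted p = 2.23e-09). Cyp4b1 had 1611, 2113 and 2348 CPM in PBS-cKOt, against 2946, 3478 and 3960 CPM in PBS-control (log2 fold change -0.76 ± 0.12). Gusb, beta-glucuronidase, was lower at -1.17. The median over the list was -0.02, and 0.10 under library sizes alone.

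Transport of water and salt changed at several steps. Of 21 water handling genes 4 were higher and 5 lower, a split of 6 and 4 under library sizes alone. Apart from Aqp8 the aquaporins called were lower, with Aqp4 at -1.25, Aqp6 at -0.60, Aqp7 at -0.22, Aqp3 at -0.45 ± 0.05 and Aqp11 at -0.31 ± 0.04. Aqp3, the basolateral water channel of the collecting duct, had 57.2, 59.6 and 66.1 CPM in PBS-cKOt, against 74.3, 81.5 and 96.9 CPM in PBS-control. The vasopressin receptor Avpr1a had 9.80, 14.6 and 17.4 CPM in PBS-cKOt, against 3.46, 4.79 and 5.72 CPM in PBS-control (log2 fold change 1.52 ± 0.13, edgeR adjusted p = 3.30e-12). For both genes the groups did not overlap.

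Among 33 sodium and potassium transport genes, 9 were lower and 5 higher, a direction that turned under library sizes alone (7 lower, 13 higher). Slc9a3 (NHE3), the sodium proton exchanger of the proximal tubule, had 99.6, 140 and 168 CPM in PBS-cKOt, against 178, 203 and 229 CPM in PBS-control (log2 fold change -0.55 ± 0.08). Atp1b1, the beta subunit of the sodium pump, was lower at -0.35 ± 0.05. The sodium channel subunit Scnn1b (0.41 ± 0.09) and its regulator kinase Sgk1 (0.86 ± 0.15) were higher. Sgk1 had 91.8, 125 and 143 CPM in PBS-cKOt, against 42.7, 64.9 and 99.3 CPM in PBS-control, with 8 of 9 PBS-cKOt libraries above all controls. Atp12a, a proton potassium pump, had 1.99, 2.41 and 4.81 CPM in PBS-cKOt, against 0.164, 0.383 and 1.76 CPM in PBS-control (log2 fold change 2.32 ± 0.29).

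In the mineral and acid-base lists more genes were called higher than lower. Of 36 phosphate, calcium, magnesium and vitamin D genes 10 were higher and 6 lower (median 0.12), and 14 higher and 4 lower under library sizes alone. Slc34a2, a phosphate transporter, had 6.92, 10.9 and 16.6 CPM in PBS-cKOt, against 2.64, 3.75 and 4.65 CPM in PBS-control (log2 fold change 1.66 ± 0.15, edgeR adjusted p = 3.09e-11). In the distal calcium route the channels Trpv5 (0.43) and Trpv6 (0.50) and S100g (0.76), a calcium-binding protein, were higher. The calcium-binding protein Calb1 (0.35 ± 0.14, edgeR adjusted p = 0.0578) and the exporters Slc8a1 (0.26), Atp2b1 (-0.19) and Atp2b4 (0.12) did not pass the test. The vitamin D hydroxylases Cyp27b1 (-1.01) and Cyp24a1 (-0.94), which make and break the active hormone, were both lower. Of 29 acid-base and ammonia genes 8 were higher and 5 lower (median 0.11), and 14 higher and 4 lower under library sizes alone. Glul, glutamine synthetase, had 276, 356 and 416 CPM in PBS-cKOt, against 444, 499 and 624 CPM in PBS-control (log2 fold change -0.58 ± 0.09).

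Markers of the intercalated cell, the acid-base cell of the collecting duct, overlap with that list, and 5 of 9 were higher and none lower. The count higher was 3 of 9 without PBS-cKOt 1 and PBS-cKOt 3, and 8 of 9 under library sizes alone. A fit of the PBS libraries alone gave 7 higher and 1 lower. Of the 9 log2 fold changes 8 were positive, and Slc4a1 went the other way at -0.32 ± 0.13 (edgeR adjusted p = 0.0617). In STZ mice Slc4a1 was called lower (-0.46 ± 0.12, edgeR adjusted p = 0.00667). The summed level of the 9 markers was 432 to 540 CPM in PBS-cKOt, against 369 to 466 CPM in PBS-control. Foxi1, the transcription factor that defines these cells, had 28.2, 35.7 and 45.0 CPM in PBS-cKOt, against 20.7, 25.9 and 31.1 CPM in PBS-control (log2 fold change 0.44 ± 0.11). The part of cell number in the acid-base values was not tested.

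The renin-angiotensin and kinin list had 6 of 16 tested genes higher and 1 lower (median 0.13). Under library sizes alone 7 were higher and 0 lower. Without PBS-cKOt 1 and PBS-cKOt 3 the split was 6 higher and 0 lower. Agt, angiotensinogen (chr8:124556534-124569706), had 74.2, 86.5 and 111 CPM in PBS-cKOt, against 31.7, 38.4 and 48.3 CPM in PBS-control (log2 fold change 1.22 ± 0.09, edgeR adjusted p = 3.75e-13). Ace, which makes angiotensin II, was lower at -0.39, but neither of those settings called any gene of the list lower. Cpn1, which cleaves kinins, had 72.2, 76.1 and 91.8 CPM in PBS-cKOt, against 32.5, 37.3 and 44.9 CPM in PBS-control (log2 fold change 1.06 ± 0.09). Kng1, a kininogen, was higher by 1.38 ± 0.26 from levels near 1 CPM.

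Proteins best known as liver products moved strongly in both directions, with 12 of 35 genes higher and 8 lower. The 3 fibrinogen chains, which lie side by side and form the clot protein, rose together with Lrat, a retinol esterifying enzyme, and Gm30097 at chr3:82892579-83049863. Fgg had 62.8, 92.0 and 207 CPM in PBS-cKOt, against 3.12, 5.53 and 15.1 CPM in PBS-control, a log2 fold change of 4.11 ± 0.27 (edgeR adjusted p = 4.14e-15). Fga had 88.6, 142 and 257 CPM in PBS-cKOt, against 11.9, 15.5 and 29.4 CPM in PBS-control (log2 fold change 3.08 ± 0.20). Fgb had 2.69, 6.24 and 19.6 CPM in PBS-cKOt, against 0.273, 0.547 and 1.63 CPM in PBS-control (log2 fold change 3.33 ± 0.37). All 3 chains were without overlap between the groups, while on this CPM scale Fgb stayed the lowest of them in both.

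Of the apolipoproteins of the same list, Apoc3 was higher by 1.30 ± 0.15 and Apoa1 by 0.83, whereas Apoa4 was not called. Ambp, the precursor of alpha-1-microglobulin, was higher by 0.93. Complement C3 (-1.04), C4b (-1.27) and Cfb (-0.59) were lower with Alb and Angptl7. Of the 395 genes with at least 2-fold change, 103 had another one changed in the same direction within 200000 bases and 21 had one changed in the opposite direction. How often equally many genes drawn from all tested genes would have such neighbours was not counted, so these numbers have no background to be judged by. Besides fibrinogen, runs of 3 or more were the Nat8f genes on chromosome 6, the Ces1 genes on chromosome 8, the Serpina1 genes on chromosome 12 and immunoglobulin kappa segments on chromosome 6, all lower, and Acnat1 and Acnat2 with Plppr1 on chromosome 4, a Cyp2d group on chromosome 15 and 3 predicted genes on chromosome 12, all higher. Most of these runs are families of close copies, for which reads mapping to several places were not assigned.

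Growth signalling and nuclear receptors changed gene by gene. Ghr, the growth hormone receptor, had 665, 735 and 860 CPM in PBS-cKOt, against 963, 1079 and 1153 CPM in PBS-control (log2 fold change -0.52 ± 0.06, edgeR adjusted p = 3.72e-09). Downstream of it, Stat5a was higher by 0.56 ± 0.09 and Socs2, a feedback inhibitor, by 1.00, and the binding protein Igfbp2 by 1.11, while Igf2r was lower at -0.61. Of 28 insulin and IGF genes 6 were higher and 7 lower, and 6 higher and 3 lower under library sizes alone. Thra, the thyroid hormone receptor alpha, had 101, 113 and 126 CPM in PBS-cKOt, against 38.2, 44.9 and 51.3 CPM in PBS-control (log2 fold change 1.34 ± 0.07, edgeR adjusted p = 4.28e-18). Pparg was lower at -0.76, in contrast to Ppard. Nuclear receptors and cofactors gave 6 higher and 9 lower of 46, a direction that turned under library sizes alone (11 higher, 4 lower).

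**Figure D3:**
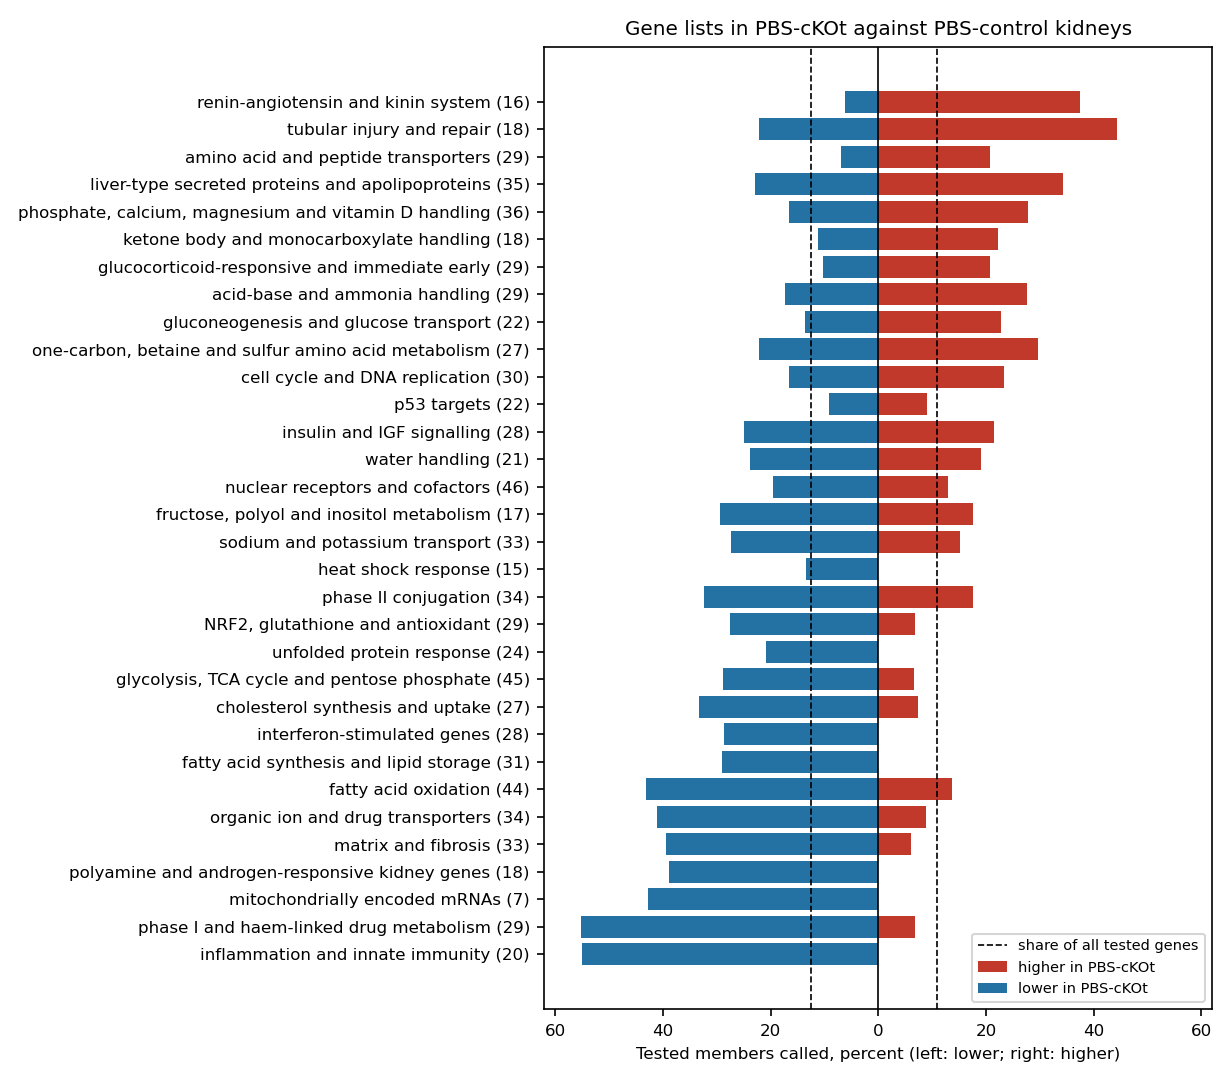
Percent of tested members of each of 32 gene lists called higher (red, right) or lower (blue, left) in PBS-cKOt, ordered by the difference, with the number tested in parentheses; dashed lines mark the shares of all tested genes, 10.9% higher and 12.5% lower. Inflammation and phase I drug metabolism lie at the lower end, and the renin-angiotensin and kinin list at the upper end.

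Genes of tubular injury and repair were higher in 8 of 18 and lower in 4 (median 0.27). Havcr1, which encodes the injury marker KIM-1, was lower at -1.04, as were Vcam1 (-0.50), Cd44 (-0.62) and the haem oxygenase Hmox1 (-0.89 ± 0.13). Cdkn1a, the cell cycle inhibitor p21 (chr17:29090976-29100727), had 17.1, 22.2 and 28.7 CPM in PBS-cKOt, against 2.86, 4.00 and 5.55 CPM in PBS-control (log2 fold change 2.46 ± 0.13, edgeR adjusted p = 8.83e-18). Itgb6, an integrin subunit that activates TGF-beta, had 110, 145 and 154 CPM in PBS-cKOt, against 65.4, 76.9 and 96.4 CPM in PBS-control (log2 fold change 0.82 ± 0.08). Prom1, a membrane protein of regenerating tubules, rose by 0.84 ± 0.11 and the transcription factor Myc by 1.26. Of the 21 p53 targets tested other than Cdkn1a, 1 was higher, Sesn2 (0.36), and 2 were lower, Plk2 (-0.51) and Rrm2b (-0.30 ± 0.11); under library sizes alone the whole list of 22 gave 4 higher and 1 lower.

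In the cell cycle list 7 of 30 genes were higher and 5 lower, and 10 higher and 4 lower under library sizes alone. Ccnd1, cyclin D1, had 75.1, 83.2 and 122 CPM in PBS-cKOt, against 174, 223 and 281 CPM in PBS-control (log2 fold change -1.39 ± 0.11, edgeR adjusted p = 4.00e-13). Wee1, a mitotic brake that the clock is known to drive in liver, had 9.68, 13.03 and 16.4 CPM in PBS-cKOt, against 20.1, 26.4 and 30.7 CPM in PBS-control (log2 fold change -0.98 ± 0.10). The replication helicase genes Mcm2 (0.36 ± 0.06), Mcm4 (0.29), Mcm5 (0.45) and Mcm7 (0.44) were slightly higher.

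Inflammatory genes were lower in 11 of 20 tested and higher in none (median -0.35), in 9 without PBS-cKOt 1 and PBS-cKOt 3 (median -0.33) and in 6 under library sizes alone (median -0.24). Tnfaip3, a brake on NF-kappaB, had 3.87, 4.99 and 5.64 CPM in PBS-cKOt, against 5.75, 6.79 and 9.21 CPM in PBS-control, without overlap (log2 fold change -0.53 ± 0.11, edgeR adjusted p = 0.000544). The chemokines Ccl5 (-0.87 ± 0.21), Cxcl1 (-0.75), Cxcl10 (-0.52 ± 0.13) and Cxcl12 (-0.33 ± 0.08) were lower. For Ccl5, Cxcl10 and Cxcl12 the groups overlapped, and only 1 of the 20 listed genes was without overlap. Markers of immune cells moved with this list: 3 of 9 macrophage markers were lower and none higher, with a summed level of 175 to 231 CPM in PBS-cKOt, against 215 to 311 CPM in PBS-control, and 2 of 9 lymphocyte markers were lower. Without PBS-cKOt 1 and PBS-cKOt 3, 1 of 9 macrophage markers was lower (median -0.25, against -0.31 with all libraries), as was 1 of 9 under library sizes alone. The part of immune cell number in the inflammatory values was not tested. Interferon-stimulated genes were lower in 8 of 28 and higher in none, and under library sizes alone in 2 with 1 higher.

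Matrix genes were lower in 13 of 33 and higher in 2 (median -0.28), but lower in 6 without PBS-cKOt 1 and PBS-cKOt 3 and in 5 under library sizes alone. The median without the pair was -0.26, so the count of calls moved and the median hardly did. Fn1, fibronectin, had 11.4, 19.3 and 31.4 CPM in PBS-cKOt, against 23.2, 34.7 and 40.6 CPM in PBS-control (log2 fold change -0.78 ± 0.17, edgeR adjusted p = 0.000837). Markers of fibroblasts and mural cells were lower in 5 of 10 (median -0.26), in 0 of 10 without the pair (median -0.24) and in 2 of 10 under library sizes alone, with a summed level of 215 to 295 CPM in PBS-cKOt, against 263 to 390 CPM in PBS-control. The members that rose were Loxl4 and Col4a3, a chain of the tubular and glomerular basement membrane. Col4a3 had 297, 558 and 623 CPM in PBS-cKOt, against 269, 301 and 386 CPM in PBS-control, and its lowest value was in PBS-cKOt 1 (log2 fold change 0.78 ± 0.09).

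In the unfolded protein response 5 of 24 genes (20.8%) were lower and none higher, against 12.5% of all tested genes lower, and 3 were lower under library sizes alone. Herpud1, a factor of protein degradation at the endoplasmic reticulum, had 156, 190 and 224 CPM in PBS-cKOt, against 276, 295 and 324 CPM in PBS-control (log2 fold change -0.62 ± 0.08). In the antioxidant list 8 of 29 genes (27.6%) were lower and 2 higher, a direction that turned under library sizes alone (2 lower, 6 higher). Cat, catalase, had 829, 926 and 1020 CPM in PBS-cKOt, against 1087, 1199 and 1364 CPM in PBS-control (log2 fold change -0.37 ± 0.05), and the factor Nfe2l2 (NRF2) rose by 0.25 ± 0.05.

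The selenium proteins of plasma that the kidney takes up or makes were among the largest losses in reads. Selenop, which carries selenium, had 3117, 3480 and 3831 CPM in PBS-cKOt, against 3644, 4982 and 6195 CPM in PBS-control (log2 fold change -0.52 ± 0.10, edgeR adjusted p = 7.05e-05). Gpx3, the plasma glutathione peroxidase made by the tubule, had 10700.0, 14836 and 18370.5 CPM in PBS-cKOt, against 15278, 18354 and 19854 CPM in PBS-control, with wide overlap (log2 fold change -0.28 ± 0.08).

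Mitochondrially encoded genes took 14.4% ± 1.83 of assigned reads in PBS-cKOt, against 16.4% ± 2.11 in PBS-control (SD, n = 9 each; exact 2-sided permutation test, p = 0.0333). Without PBS-cKOt 1 and PBS-cKOt 3 the share in PBS-cKOt was 14.1% ± 0.879 (n = 7; exact permutation p = 0.00455). That setting drops the highest PBS-cKOt library, PBS-cKOt 3 at 18.4%, and keeps the highest control, PBS-control 3 at 21.5%. Its smaller p is therefore no added evidence. Of the 13 mitochondrial mRNAs 7 passed the filter on low counts, and 3, mt-Nd1, mt-Nd2 and mt-Nd5, were lower. Members that failed the filter, mt-Atp6, mt-Nd3 and mt-Co3 among them, had too few assigned reads to test. The mitochondrial share above therefore says little about those members. Reads mapping to several places were not assigned, and whether that removed reads of these mRNAs was not tested. The nuclear genes of oxidative phosphorylation gave 2 higher and 3 lower of 90, but 18 higher and 2 lower under library sizes alone.

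Cytosolic ribosomal protein genes were higher in 31 of 77 and lower in none (median 0.25), but in 6 of 77 without PBS-cKOt 1 and PBS-cKOt 3 and in 70 of 77 under library sizes alone. Most of that count thus rests on PBS-cKOt 1 and PBS-cKOt 3. Over 5 equal groups of the tested genes by exon length, the share called lower ran from 7.80% in the shortest to 17.4% in the longest with all libraries, and from 7.80% to 9.57% without the pair.

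**Figure D4:**
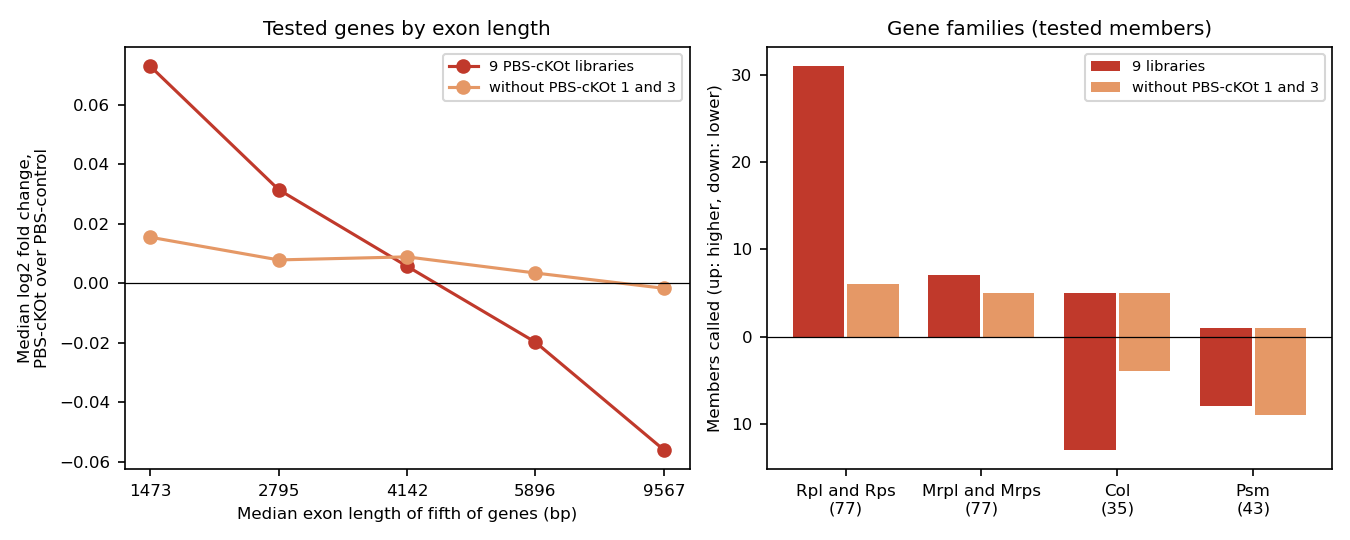
Left, median log2 fold change of PBS-cKOt over PBS-control in 5 equal groups of the tested genes by exon length, with the median exon length in bases on the x axis, for all 9 PBS-cKOt libraries (red) and without PBS-cKOt 1 and 3 (orange). Right, number of called genes in 4 gene families, higher upward and lower downward, with the number tested in parentheses; 31 of 77 Rpl and Rps genes are higher with all libraries and 6 of 77 without the pair.

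Markers of the cell types of the kidney were present in both groups. For the proximal tubule, markers of its first segments gave 4 of 12 lower and none higher (2 lower and 1 higher under library sizes alone), and those of the S3 segment 2 higher and 3 lower of 9 (4 higher and 2 lower). The summed S3 level was 7311 to 8231 CPM in PBS-cKOt, against 8927 to 10658 CPM in PBS-control, without overlap. Its most abundant member was Slc27a2, a fatty acid activating enzyme, with 3342, 3547 and 3752 CPM in PBS-cKOt, against 4108, 4692 and 5214 CPM in PBS-control. The sum therefore weighs abundant members most. Over the 9 S3 markers the median log2 fold change was 0.01, with 5 positive and 4 negative. Thick ascending limb and distal convoluted tubule had 1 marker each higher, Cldn10 (0.44 ± 0.07) and Trpm6 (0.44 ± 0.12). Without PBS-cKOt 1 and PBS-cKOt 3 these counts were 2 of 8 and 3 of 7, and under library sizes alone 3 of 8 and 4 of 7. Podocyte and endothelial markers had 2 of 8 and 1 of 9 lower, and without the pair 1 of 8 and 0 of 9. Fat tissue markers summed to 0.208 to 57.7 CPM in PBS-cKOt, against 3.86 to 179 CPM in PBS-control, and the call of Ucp1 rests on 107 CPM in PBS-control 8.

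Most of the large changes were also found in the STZ libraries, which share no sample with the PBS comparison. Of the 194 genes at least 2-fold higher in PBS-cKOt, 165 were called higher and none lower in STZ-cKOt against STZ-control, where 9.52% of all tested genes were higher and 10.1% lower. Of the 201 at least 2-fold lower, 154 were called lower and none higher. Without the library labelled STZ-control 2 the counts were 163 and 152. The fold was smaller in STZ mice for 157 of the 194 and 138 of the 201 genes, and for 147 and 137 without the library labelled STZ-control 2, a comparison in which genes chosen for a large change in PBS mice have an advantage there.

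A test of the difference between the PBS and STZ effects called 7 genes (0.0448% of those tested; 1944 at an unadjusted p under 0.05). Cdkn1a had a log2 fold change of 2.46 ± 0.13 in PBS mice and 1.10 ± 0.11 in STZ mice, a difference of 1.37 (edgeR adjusted p = 1.93e-05). Apoc3, an inhibitor of lipoprotein lipase, had 1.30 ± 0.15 in PBS mice and 0.06 ± 0.14 in STZ mice (edgeR adjusted p = 0.00405 for the difference). In PBS mice Apoc3 had 6.69, 8.18 and 13.7 CPM in PBS-cKOt, against 3.07, 3.84 and 4.33 CPM in PBS-control. Both genes were called under all 29 settings tried.

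For Cyp2a4 the fall was smaller in PBS mice than in STZ mice, -2.93 ± 0.17 and -4.12 ± 0.18 on the log2 scale (edgeR adjusted p = 0.0233 for the difference), called under 27 of 29 settings. Cyp2a5 followed it at -3.93 ± 0.23 and -5.49 ± 0.25 (edgeR adjusted p = 0.0388), called under 13 of 29. Ppard rose by 3.12 ± 0.13 in PBS mice and 2.27 ± 0.12 in STZ mice (edgeR adjusted p = 0.0388), called under 19 of 29 and not without the library labelled STZ-control 2 (edgeR adjusted p = 0.0799). Mcm2 rose by 0.36 ± 0.06 in PBS mice and was at -0.05 ± 0.06 in STZ mice (edgeR adjusted p = 0.0388), called under 12 of 29. Without the library labelled STZ-control 2 the difference was 1.32 for Cdkn1a, 1.25 for Apoc3, 1.16 for Apoa4, 1.25 for Cyp2a4 and 1.69 for Cyp2a5, all still called, and 0.39 for Mcm2, not called (edgeR adjusted p = 0.0811). Apoa4 itself was not called in PBS mice (0.33 ± 0.14) and was lower in STZ mice (-0.82 ± 0.15).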

How the data were processed

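RNA from whole kidneys was made into TruSeq Stranded mRNA libraries, and reads were handled with cutadapt 1.8, HTSeq 0.9.1 and STAR 2.5.3a on GRCm38, per the submitters' processing notes. The authors deposited raw counts of reads per gene, 1 table per library, for which the sources used here state no counting options, use of strand or annotation release. The 5 closing entries that name no gene were removed before library sizes were summed; relative to assigned and unassigned reads together, over the 18 PBS libraries, multimapped reads took 30.9% to 37.8%, reads in no feature 3.64% to 6.38% and ambiguous reads 0.600% to 0.732%. Of 53715 genes, 53620 had a symbol and position in GENCODE M21, 31610 had a read, and 15637 passed edgeR's filter on low counts and were tested.

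All 36 libraries, 9 in each of 4 groups, entered a quasi-likelihood fit in edgeR 4.0.16 (R 4.3.3) with TMM scaling and 32 residual degrees of freedom. The contrasts were PBS-cKOt over PBS-control, STZ-cKOt over STZ-control and the difference of the 2, with Benjamini-Hochberg adjustment over all tested genes and a threshold of 0.05. CPM are per TMM-scaled library size. On simulated counts for the PBS comparison (15508 genes) the fit recovered 76.8% of 99 genes changed 1.5-fold and 97.0% of 99 changed 2-fold. In that simulation 4.97% of 181 calls were false. The simulation changed only those genes, about equally up and down, with independent noise and no length effect in single libraries. Its share of false calls therefore does not carry over to the 3661 genes called in PBS mice. The libraries come from separate mice.

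Genes named were the 12 largest rises and falls with a mean of at least 2 CPM outside the clock, the largest changes in CPM, the leading called members of each list, and genes whose effects differ between PBS and STZ mice; genes with a D-box and further list members were added after their values were seen. Some genes that this rule names are not reported here. Members, gene lists and marker lists were chosen with earlier results of these data known. Alternatives were DESeq2 1.42.0, limma 3.58.1 with voom, surrogate variables by sva 3.50.0, other scalings and filters, left-out libraries and a replicate block. Replicate numbers were not treated as pairs. Correlations of same-numbered PBS-cKOt and PBS-control libraries ran from -0.135 to 0.288. Such values cannot show whether mice were numbered by litter or batch.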

Additional observations from a re-analysis of the deposited data

Results flagged for a closer look

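Among 338 groups of 9 libraries, 39 held a library whose gap to the nearest other exceeded the 95% limit for a single outlying value, where chance gives about 1 in 20. In PBS-cKOt 1, the values so marked were Bhmt at 67.2, Cldn10 at 307, Cltrn at 2836, Fabp3 at 31.9, Gsta3 at 57.0385, Hao2 at 1394 and Igfbp7 at 1242 CPM, all the highest of PBS-cKOt. In the same library Col4a3 at 297, Rrm2b at 27.7, Slc36a1 at 85.4 and mt-Nd5 at 8105 CPM were the lowest. PBS-cKOt 2 stood out for Aqp11 at 51.9 and Dmgdh at 313 CPM, and PBS-cKOt 3 for Slc14a2 at 51.3 CPM, mt-Nd1 at 26087.5 CPM and a mitochondrial share of 18.4%. PBS-cKOt 5 had the highest Cyp2a5 at 13.9 CPM, PBS-cKOt 6 the highest Fhad1 at 9.05 CPM, and PBS-cKOt 8 the lowest Ccl5 at 0.2595, the highest Fgb at 19.6 and the highest Slc41a3 at 6.44 CPM.

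Among controls, PBS-control 1 had Anks1b at 10.5, Hrg at 15.2, Hspd1 at 715 and Slc22a4 at 109 CPM above the rest, and Gpx3 at 15278, Igfbp4 at 644 and Ppard at 9.34 CPM below it. PBS-control 3 had mt-Nd1 at 34904 CPM, a mitochondrial share of 21.5% and a TMM factor of 0.869. PBS-control 6 had Irf1 at 26.1 CPM. PBS-control 8 had Atp12a at 1.76, Plin2 at 133, Slc37a4 at 296, Slc5a10 at 219.6 and Ucp1 at 107 CPM, and PBS-control 9 had Fga at 29.4 and Fgg at 15.1 CPM, all the highest of PBS-control.

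The effect in PBS mice minus that in STZ mice, tested directly, was 1.37 for Cdkn1a, 1.24 for Apoc3, 1.20 for Cyp2a4, 1.57 for Cyp2a5, 0.86 for Ppard and 0.41 for Mcm2 on the log2 scale.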

How the results depend on the processing

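Across all settings the number of genes called in PBS mice ran from 2973, without PBS-cKOt 1 and 3, to 5394, with library sizes alone, against 3661. Leaving out 1 library at a time gave 3229 to 3886. Without a filter on low counts 593 genes had at least 2-fold change, against 395. For the difference between PBS and STZ effects DESeq2 called 20 and limma voom 15 genes, against 7, and leaving out 1 library at a time gave 3 to 9; the count was 4 without PBS-cKOt 2, PBS-cKOt 3, PBS-control 1 or PBS-control 4 and 3 without PBS-cKOt 5. With the replicate block 3738 genes were called in PBS mice, 386 of them at least 2-fold. That fit called 3128 genes in STZ mice and 5 for the difference. Of 9 PBS-cKOt libraries, 2 correlated best with the PBS-control library of their own number. Whether equal numbers mark related mice is not known. Restricting motif counts to genes with at least 2-fold change gave E-box shares of 7.52% (higher) and 9.24% (lower), a D-box share of 6.72% (lower) and an AGGTCA share of 21.8% (lower). The cause of these shifts was not tested. Of 170 named genes, 141 were called in every setting and 29 were not, among them Gpx3, mt-Nd1, Trpm6, Slc6a19, Slc22a6, Cxcl12, Ucp1 and the fibroblast and macrophage markers Col1a1, Col3a1, Pdgfra, Rgs5, Cd74, C1qa and Lyz2. Of 1656 list counts recomputed, 180 moved by over 1.5 times. None of the 170 named genes changed sign under any setting that gave a value. The balance of higher and lower calls turned under library sizes alone for several lists, among them glycolysis, sodium and potassium transport, nuclear receptors and the antioxidant list.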

Other observations

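Families of genes by symbol add to the lists. Solute carriers (Slc) gave 49 higher and 70 lower of 303, but 93 higher and 44 lower under library sizes alone. Cytochromes P450 (Cyp) gave 9 higher and 14 lower of 46, with 13 and 14 under library sizes alone. Carboxylesterases (Ces) had 4 of 10 lower and none higher, glucuronosyltransferases (Ugt) 5 of 16 lower and 1 higher, and aquaporins (Aqp) 5 of 8 lower and 1 higher; under library sizes alone 4 were lower and 1 higher in each of the 3 families. Klf transcription factors had 4 of 15 lower and none higher, and 3 lower and 1 higher under library sizes alone. Glutathione transferases (Gst) gave 4 higher and 1 lower of 20, and 10 higher and 1 lower under library sizes alone. Proteasome subunits (Psm) had 8 of 43 lower and 1 higher, but 4 higher and none lower under library sizes alone.

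Gulo, the last enzyme of vitamin C synthesis in mice, was higher by 1.65 on the log2 scale. Among genes responsive to glucocorticoids, Zbtb16 (1.06) and Tsc22d3 (0.37) were higher, while the receptor Nr3c1 (-0.36) and Klf15 (-0.40) were lower. Follistatin, Fst, an inhibitor of activins, had 1.47, 1.76 and 2.41 CPM in PBS-cKOt, against 3.41, 4.55 and 7.45 CPM in PBS-control (log2 fold change -1.42 ± 0.19), without overlap.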
